A study of Mus musculus with 16 samples.

Results

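Messenger RNA of 10 stellate cell, fibroblast and matrix genes was followed in cultured mouse islet cells. The genes are Col1a1, Col1a2, Col3a1, Col15a1, Sparc, Mgp, Dcn, Lum, Pdgfra and Acta2. They were taken by gene symbol from a list drawn up with earlier results of these data known. All 10 are among the 25105 genes measured. Islet cells of Grp78 flox/flox mice were dispersed and transduced with adenovirus carrying LacZ (Ad-LacZ, the control) or Cre recombinase (Ad-Cre, meant to remove Grp78). Each virus was combined with DMSO or with the pan JNK inhibitor JNK-IN-8 (JNKi), added at the start, for 72 hours in 15 mM glucose. Poly(A) RNA was sequenced in 16 libraries, 4 in each of the groups Ad-LacZ, Ad-Cre, Ad-LacZ+JNKi and Ad-Cre+JNKi. The libraries came from 4 islet preparations, F1 and F2 from female and M1 and M2 from male mice, and each preparation gave 1 library per group.

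Some features limit these groups as models. Every group, controls included, carries the floxed Grp78 alleles and an adenovirus. The virus can enter any cell of the dispersed mixture, so the deletion is not limited to β cells. Each preparation carries 2 animal numbers in the labels, while the study describes 4 mice. The deposited values are RPKM, read counts scaled by gene length and by library size, so genes of a library can be set side by side. Between libraries they are not on one scale. Their sums ran from 290885 to 368719, and the fits therefore used a further scaling.

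Pancreatic stellate cells, fibroblasts and pericytes are the mesenchymal cells of the pancreas and its islets. They lay down the collagens and proteoglycans around capillaries and endocrine cells. When activated, as happens in culture on plastic, stellate cells assemble α-smooth muscle actin into stress fibres and secrete more fibrillar collagen. TGF-β and PDGF are the best known signals for this activation, and collagen chains are folded and hydroxylated in the endoplasmic reticulum before export.

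Promoter sequences are shown for the collagen genes Col1a2 and Col3a1 and for the contractile gene Acta2, since these genes shared a pattern across preparations but had different values with the inhibitor. The 250 bases before the RefSeq start, on the gene's strand, cover chr6:4505368-4505617 (+) for Col1a2, chr1:45311288-45311537 (+) for Col3a1 and chr19:34255374-34255623 (−) for Acta2 in GRCm38.p6. The sequences are those of RefSeq, and capitals mark the motif matches named in the next paragraph. Gene spans given further below are of another annotation, GENCODE M21. By those spans the windows of Col1a2 and Sparc lie inside the gene, and that of Acta2 for the most part. Distances here are therefore from the RefSeq start only.
Col1a2: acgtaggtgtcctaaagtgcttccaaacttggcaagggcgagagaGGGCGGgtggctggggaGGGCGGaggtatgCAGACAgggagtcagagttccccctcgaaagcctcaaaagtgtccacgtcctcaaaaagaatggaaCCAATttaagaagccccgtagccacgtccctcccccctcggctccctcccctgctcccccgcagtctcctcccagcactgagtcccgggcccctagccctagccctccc
Col3a1: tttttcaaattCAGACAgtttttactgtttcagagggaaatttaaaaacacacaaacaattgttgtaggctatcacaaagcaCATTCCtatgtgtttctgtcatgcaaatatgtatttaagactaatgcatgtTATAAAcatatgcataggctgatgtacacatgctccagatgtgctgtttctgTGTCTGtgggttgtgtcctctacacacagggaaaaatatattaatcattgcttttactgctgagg
Acta2: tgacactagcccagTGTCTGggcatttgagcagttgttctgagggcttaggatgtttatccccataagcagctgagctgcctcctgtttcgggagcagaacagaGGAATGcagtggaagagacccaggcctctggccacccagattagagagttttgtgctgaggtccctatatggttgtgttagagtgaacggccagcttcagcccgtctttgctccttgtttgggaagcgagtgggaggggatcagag

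RefSeq promoters were at hand for 6 of the 10 genes, Col1a2, Col3a1, Col15a1, Pdgfra, Acta2 and Sparc. Motifs were searched on both strands. The SMAD box (CAGACA or TGTCTG) was found in 4 of the 6, at 175 bases before the start of Col1a2, at 239 and 65 bases for Col3a1, at 236 bases for Acta2 and at 36 bases for Sparc, and in 17.1% of all 32851 promoters. A TEAD motif (GGAATG or CATTCC), held by 12.6% of all promoters, stood 168 bases before the start of Col3a1 and 146 bases before that of Acta2. Col1a2 held a CCAAT box (CCAAT or ATTGG, 33.8% of all promoters) at 109 bases and GC boxes (GGGCGG or CCGCCC, 32.7%) at 205 and 188 bases. Col3a1 held a TATA box (TATAAA or TTTATA, 12.4%) at 117 bases, farther from the start than the usual place of this element. The AP-1 site (TGACTCA or TGAGTCA), the sequence bound by JUN and FOS dimers, was in 0 of the 6 windows and in 4.46% of all promoters. The CArG box (CC, a run of A or T, then GG) is bound by serum response factor. Exact matches to it and to the ER stress response element were likewise in 0 of 6, and in 1.47% and 0.113% of all promoters. The Acta2 window holds ccctatatgg and ccttgtttgg, close to a CArG box but with a C or G within the run. These were not counted. These matches describe letters and are neither binding sites nor causes, and an absent match says nothing of the factor.

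Sequencing depth, estimated from the steps between low values, ranged from 7.7 to 25.5 M reads per library. The library of Ad-Cre+JNKi from preparation F2 had the lowest depth and came from another sequencing lane. Hspa5, which encodes GRP78 and was the targeted gene, was at 478, 396, 483 and 395 RPKM in Ad-LacZ (in the order F1, F2, M1, M2, used throughout). In the libraries labelled Ad-Cre it was at 1107, 1598, 1114 and 1237 RPKM, higher in every one. With the inhibitor it was at 458, 372, 461 and 348 RPKM in Ad-LacZ+JNKi and at 1381, 1660, 1416 and 1202 RPKM in the libraries labelled Ad-Cre+JNKi. These values go against a lower level of the whole transcript. A value for the whole gene cannot show whether the floxed part was lost, and the study checked the knockdown by qPCR on RNA set aside from the same samples, so the directions given here are those of the libraries labelled Ad-Cre. Of the islet markers, all 10 of β cells, 6 of α cells and 3 of δ cells were above 1 RPKM in at least 4 libraries, whereas 7 of 10 acinar markers stayed below 0.1 RPKM in every library. In RNA from mixed cells, fewer cells of a type and less RNA per cell cannot be told apart.

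The 10 genes covered a wide range of levels. By the median over 16 libraries Acta2 was the highest at 276 RPKM, followed by Sparc at 46.1, Col1a1 at 43.3, Col1a2 at 10.1, Col3a1 at 8.86, Mgp at 8.47, Col15a1 at 3.75, Dcn at 0.843, Pdgfra at 0.828 and Lum at 0.0926 RPKM. The ranges of Sparc (18.4 to 244 RPKM) and Col1a1 (10.9 to 339 RPKM) overlapped. So did those of Col1a2, Col3a1, Mgp and Col15a1 and those of Dcn, Pdgfra and Lum. These ranges span all groups and preparations, and differences between genes within a library were not tested. Lum was below Dcn in every library. Sparc was above Col1a1 in every Ad-LacZ library but below it in the Ad-Cre library of M2. The low end rests on few reads. Lum had 0 to 763 reads per library, Dcn 3 to 2572 and Pdgfra 4 to 1499, against at least 1101 reads for Col1a1.

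**Figure D1:**
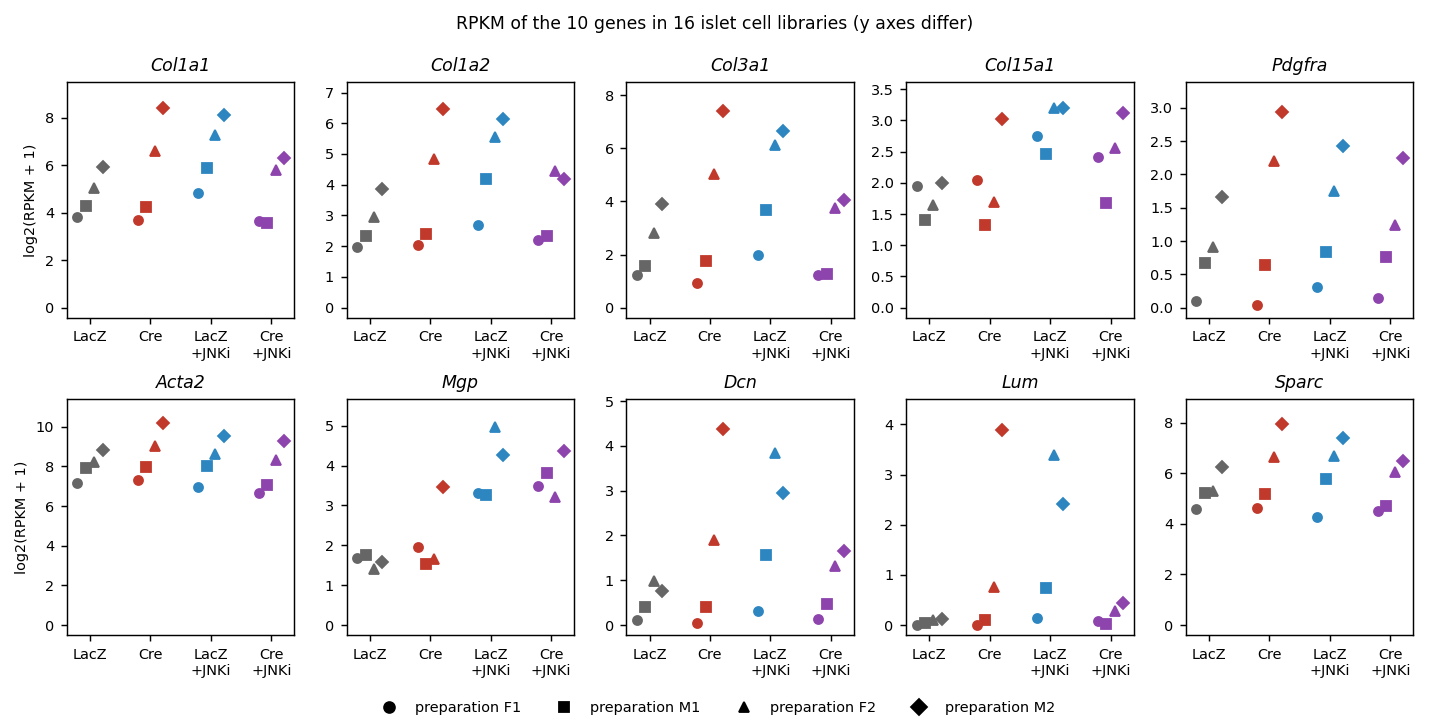
Level of each of the 10 genes, as log2(RPKM + 1) on axes that differ between panels, in the 16 libraries by group, with 1 mark per preparation. Preparations F2 and M2 sit above F1 and M1 for most genes in every group, and the Ad-Cre library of M2 holds the highest value of 8 of the 10 genes.

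The fibrillar collagens varied more between preparations than between groups. Col1a1 (chromosome 11, 94936224 to 94953042, + strand) encodes the major chain of type I collagen. It was at 13.1, 31.6, 18.4 and 60.3 RPKM in Ad-LacZ, 11.9, 94.7, 17.8 and 339 in Ad-Cre, 27.8, 153, 58.1 and 280 in Ad-LacZ+JNKi, and 11.5, 54.9, 10.9 and 78.0 in Ad-Cre+JNKi. In each group both F2 and M2 lay above both F1 and M1, and the ranges of all 4 groups overlapped. Col1a2 (chromosome 6, 4504814 to 4541544, + strand), the partner chain, was at 2.88, 6.64, 4.06 and 13.5 RPKM in Ad-LacZ, 3.06, 27.4, 4.23 and 86.7 in Ad-Cre, 5.50, 46.3, 17.1 and 69.5 in Ad-LacZ+JNKi, and 3.61, 20.9, 4.00 and 17.4 in Ad-Cre+JNKi. Again both F2 and M2 lay above both F1 and M1 in each group, and the groups overlapped. Col3a1 (chromosome 1, 45311538 to 45349706, + strand), the chain of type III collagen, was at 1.34, 6.02, 1.93 and 14.0 RPKM in Ad-LacZ, 0.878, 32.0, 2.34 and 169 in Ad-Cre, 2.91, 69.3, 11.7 and 101 in Ad-LacZ+JNKi, and 1.34, 12.5, 1.42 and 15.7 in Ad-Cre+JNKi. Its highest library was 193 times its lowest, against 31.1 times for Col1a1 and 30.1 times for Col1a2.

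Col15a1 (chromosome 4, 47208161 to 47313167, + strand), a collagen that links basement membranes to the fibrils beside them, spread less. It was at 2.88, 2.13, 1.65 and 3.00 RPKM in Ad-LacZ, 3.15, 2.24, 1.49 and 7.12 in Ad-Cre, 5.77, 8.17, 4.53 and 8.16 in Ad-LacZ+JNKi, and 4.35, 4.87, 2.21 and 7.71 in Ad-Cre+JNKi. Every Ad-LacZ+JNKi library was above every Ad-LacZ library, and the 16 libraries spanned 5.47 times, the narrowest range of the 9 genes with reads in every library.

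Among the secreted matrix proteins, Sparc and Mgp had different patterns. Sparc (chromosome 11, 55394500 to 55423183, − strand), a collagen-binding glycoprotein, was at 22.9, 38.7, 36.8 and 75.3 RPKM in Ad-LacZ, 23.6, 99.1, 35.6 and 244 in Ad-Cre, 18.4, 103, 53.6 and 167 in Ad-LacZ+JNKi, and 21.7, 66.3, 25.0 and 87.9 in Ad-Cre+JNKi. It was highest in M2 in each group, and the groups overlapped. Mgp (chromosome 6, 136872435 to 136875823, − strand), matrix Gla protein, an inhibitor of calcification, was at 2.19, 1.63, 2.36 and 2.01 RPKM in Ad-LacZ, 2.89, 2.15, 1.87 and 9.99 in Ad-Cre, 8.98, 30.4, 8.65 and 18.3 in Ad-LacZ+JNKi, and 10.2, 8.29, 13.1 and 19.8 in Ad-Cre+JNKi. The libraries with the inhibitor were above those with DMSO, except that the Ad-Cre library of M2 lay among them.

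Dcn and Lum, the small leucine-rich proteoglycans decorin and lumican that bind collagen fibrils, were low. Dcn (chromosome 10, 97479609 to 97518143, + strand) was at 0.0767, 0.986, 0.316 and 0.700 RPKM in Ad-LacZ, 0.0360, 2.74, 0.323 and 19.6 in Ad-Cre, 0.251, 13.3, 1.98 and 6.71 in Ad-LacZ+JNKi, and 0.106, 1.51, 0.379 and 2.14 in Ad-Cre+JNKi. Lum (chromosome 10, 97565128 to 97572703, + strand) had 0, 4, 1 and 5 reads in Ad-LacZ, 0, 40, 4 and 763 in Ad-Cre, 5, 588, 37 and 246 in Ad-LacZ+JNKi, and 2, 4, 1 and 18 in Ad-Cre+JNKi. For both genes most of the reads of Ad-Cre came from M2.

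Pdgfra and Acta2 stand for the cells rather than the matrix. Pdgfra (chromosome 5, 75152292 to 75198215, + strand), the PDGF receptor α of fibroblasts, was at 0.0759, 0.877, 0.597 and 2.18 RPKM in Ad-LacZ, 0.0280, 3.62, 0.557 and 6.67 in Ad-Cre, 0.235, 2.36, 0.778 and 4.37 in Ad-LacZ+JNKi, and 0.109, 1.37, 0.696 and 3.74 in Ad-Cre+JNKi. F1 was the lowest preparation in every group, with 4 to 50 reads. Acta2 (chromosome 19, 34241090 to 34255590, − strand), α-smooth muscle actin, was at 140, 295, 241 and 448 RPKM in Ad-LacZ, 156, 523, 247 and 1153 in Ad-Cre, 121, 395, 257 and 730 in Ad-LacZ+JNKi, and 98.6, 319, 132 and 626 in Ad-Cre+JNKi. The order F1, M1, F2, M2 held in all 4 groups. Actin genes have close to identical coding sequences, and how the authors counted shared reads is not given in the sources used here, so the level of Acta2 is uncertain.

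The islet preparation accounted for most of the variation of these genes. In 35 of the 40 combinations of gene and group, both F2 and M2 were above both F1 and M1. M2 was the highest in 33 of 40 and F1 the lowest in 30 of 40. These orders were counted for the members only, so how common they are among all genes was not tested. In limma, on log2(RPKM + 1) after scaling, 8 of the 9 genes that passed the low filter differed between preparations at an adjusted p under 0.05, where 31.9% of the 12274 genes tested did. Mgp was the exception (adjusted p = 0.356). The highest and lowest preparation differed by 4.02 on the log2 scale for Col3a1 (adjusted p = 0.000266), 3.01 for Col1a1 (adjusted p = 0.00014), 2.25 for Acta2 (adjusted p = 3.67e-05) and 1.01 for Col15a1 (adjusted p = 0.00595). The count was 7 when F1, M1 or M2 was left out. Lum failed the filter of 1 RPKM in at least 4 libraries. Pdgfra was above 1 RPKM only in libraries of F2 and M2, and Dcn only in these and in Ad-LacZ+JNKi of M1. These genes thus passed the filter through preparations where they were high, so their calls between preparations are no independent support. Without M2, Pdgfra failed the filter and was not among the genes called.

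The summed level of the 10 genes was 152 to 201 RPKM in the libraries of F1, 384 to 831 in F2, 189 to 414 in M1 and 619 to 2049 in M2. The β cell markers summed to 46488 to 85014 RPKM in F1, 47454 to 60625 in F2, 59454 to 79014 in M1 and 33368 to 52128 in M2, so that the lowest β cell sums and the highest sums of the 10 genes were both found in M2. The part of cell composition in the differences between preparations was not tested.

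As a share of the total sum of squares over 16 libraries, the preparation took 68.7% for Col1a1, 64.3% for Col1a2, 69.4% for Col3a1, 79.1% for Sparc, 85.1% for Pdgfra and 85.8% for Acta2. It took 50.8% for Dcn, 34.3% for Col15a1 and 6.06% for Mgp. For the last pair the inhibitor held the larger share, 47.8% for Col15a1 and 76.6% for Mgp, while for Acta2 it held 0.955%. The virus held at most 1.85%, for Pdgfra. The interaction of virus and inhibitor held 18.8% for Col1a1, 18.0% for Col1a2, 17.6% for Col3a1 and 20.5% for Dcn. The median shares of the 9 genes were 68.7% for preparation, 0.623% for virus, 3.09% for inhibitor and 9.50% for the interaction, beside 23.7%, 22.9%, 3.10% and 1.75% over all genes tested. Over the 12 libraries without M2 the preparation took 58.8% for Col1a1 and 80.8% for Acta2, the inhibitor 62.2% for Col15a1 and 86.5% for Mgp, and the medians of the 9 genes were 59.7%, 0.690%, 8.11% and 8.96%, beside 17.3%, 33.3%, 4.17% and 2.39% over all genes. These shares are descriptions, with no test.

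**Figure D2:**
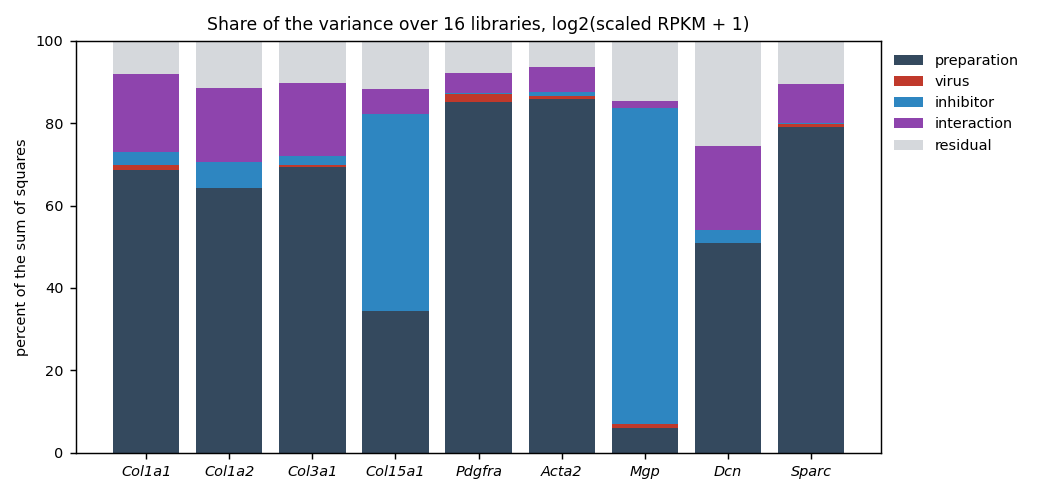
Share (%) of each gene's sum of squares over 16 libraries taken by islet preparation, virus, inhibitor, their interaction and the residual, for the 9 genes above the low filter. Preparation takes 50.8% to 85.8% for 7 genes, and the inhibitor takes 47.8% for Col15a1 and 76.6% for Mgp.

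The Ad-Cre library of M2 stood apart. It held the highest value of 8 of the 10 genes, the others being Col15a1 and Mgp, whose highest library was Ad-LacZ+JNKi of F2. Of all 13497 genes above 1 RPKM in some library, 2615 (19.4%) were highest in the Ad-Cre library of M2. It was also the highest library for 12 of 12 contractile genes, 13 of 15 other collagen chains and 17 of 21 matrix glycoproteins, for 4 of 9 macrophage and 5 of 10 endothelial markers, and for 0 of 10 β cell markers. Its β cell markers summed to 33563 RPKM, against 52128 in the Ad-LacZ library of M2. Fold changes, the interaction, variance shares, correlations and list medians are therefore also given without it or without preparation M2.

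The comparison of the libraries labelled Ad-Cre with Ad-LacZ asks how the matrix genes respond to the Cre virus. Group means were higher with Ad-Cre for all 10 genes, but the spread was wide. Col1a1 was at 30.8 ± 21.1 RPKM (SD, n = 4) in Ad-LacZ and 116 ± 154 in Ad-Cre, and Acta2 at 281 ± 129 and 520 ± 450 RPKM. Within preparations, Col1a1 was 3.00 times its Ad-LacZ level in F2 and 5.62 times in M2, and 0.907 and 0.967 times in F1 and M1. On scaled values Col1a2 and Acta2 were higher in all 4 preparations, beside 26.2% of genes tested that were higher and 27.0% that were lower in all 4. The Col1a2 ratios were 1.06 in F1, 4.13 in F2, 1.04 in M1 and 6.43 in M2, so the higher values were mainly those of F2 and M2.

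In limma 0 of the 7 genes tested were called between Ad-Cre and Ad-LacZ at an adjusted p under 0.05, and 0 at an unadjusted p under 0.05, where 19.3% of all genes tested were called. The study's rule, an unadjusted p under 0.05 with a fold change over 1.5, took 0 of the 7 and 10.2% of all genes. The log2 fold changes ran from 0.28 for Col15a1 to 1.41 ± 1.30 (SE) for Col3a1 (adjusted p = 0.481), with a median of 0.77 beside 0.01 over all genes. The groups overlapped for each of the 7, whereas 12.7% of all genes were higher and 14.8% lower without overlap. With the preparation as a replicate block 0 of 7 were called and 5 had an unadjusted p under 0.05, with adjusted p of 0.0582 for Col1a2 to 0.0904 for Col1a1, where 34.5% of genes were called. In this paired fit 2 were called without F1 (Col1a2 and Col3a1), 4 without M1 (Col1a1, Col1a2, Acta2 and Sparc) and 0 without F2 or M2. Over all genes these fits called 2758 of 11390 without F1 and 3072 of 11402 without M1. They called 1908 of 11154 without F2 and 3012 of 11102 without M2. The 2 of 7 without F1 are thus near the share of all genes. Without the Ad-Cre library of M2 the unpaired log2 fold change was 0.11 for Col1a1 and 0.12 for Acta2. Marker sums, which can be set by the most abundant genes, are given for other cells. Macrophage markers summed to 71.5 to 215 RPKM in Ad-Cre, against 72.0 to 81.1 in Ad-LacZ, and endothelial markers to 23.1 to 84.3, against 24.6 to 45.7. All 10 β cell markers were lower in Ad-Cre (median -0.84), 3 called without the block and 7 with it. The part of these cells was not tested.

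With the inhibitor in Ad-LacZ cells, Mgp and Col15a1 were called higher, 2 of the 7 members tested. Between Ad-LacZ and Ad-LacZ+JNKi, Mgp went from 2.05 ± 0.313 to 16.6 ± 10.2 RPKM (SD, n = 4), and was 4.11, 18.6, 3.67 and 9.07 times its level without inhibitor in F1, F2, M1 and M2. Col15a1 went from 2.42 ± 0.636 to 6.66 ± 1.81 RPKM, 2.01, 3.83, 2.74 and 2.72 times. Col1a1 was 2.13, 4.84, 3.16 and 4.64 times higher, and Col3a1 2.17, 11.5, 6.08 and 7.22 times. Dcn was 3.27, 13.5, 6.26 and 9.59 times higher, but from 10 to 125 reads. On scaled values 8 of the 10 genes were higher in all 4 preparations, and 5 of the 7 tested, beside 10.8% of genes tested that were higher and 10.9% that were lower in all 4. The exceptions were Acta2, at 0.867, 1.34, 1.06 and 1.63 times, and Sparc, at 0.806, 2.67, 1.46 and 2.22 times.

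By limma, Mgp rose by 2.37 ± 0.31 (SE) on the log2 scale (adjusted p = 0.0361) and Col15a1 by 1.17 ± 0.17 (adjusted p = 0.0444) with the inhibitor in Ad-LacZ cells. These were 2 of 7 members tested, where 0.206% of 11657 genes passed. By the study's rule, here with a fold change over 1.2, the count was 5 of 7, with Col1a1, Col1a2 and Col3a1 added, beside 4.79% of genes. Col1a1 had a log2 fold change of 1.79 ± 0.66 (adjusted p = 0.645), Col1a2 of 1.89 ± 0.67 (adjusted p = 0.599), Col3a1 of 2.25 ± 0.99 (adjusted p = 0.785) and Acta2 of 0.27 ± 0.48 (adjusted p = 1.00). The median of the 7 was 1.79, and that of all genes was below 0.01 in size. With the preparation as a replicate block Col15a1 (adjusted p = 0.0365) and Col1a1 (SE 0.19, adjusted p = 0.0438) were called and Mgp was not (adjusted p = 0.0647), where 0.360% of genes were called. Both paired calls were lost on RPKM as deposited and without M1 or M2. Without M1 or M2 the paired fit called 0 genes of any kind. Without F2 it called Col15a1 and Mgp but not Col1a1, beside 22 of 11229 genes. Without F1 it called 6 members, beside 204 of 11531 genes.

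Both calls without the block were lost on RPKM as deposited, with no low filter, and when any 1 preparation was left out, the last with adjusted p of 0.148 to 0.269 for Mgp and 0.122 to 0.386 for Col15a1. Groups did not overlap for Mgp, Col15a1 and Lum, the last by libraries of 5 reads each. The exact permutation test (two-sided) gave p = 0.0286 for each, which is the minimum for 4 libraries in either group, and 0.381 after adjustment over the 40 tests of 10 genes in 4 comparisons. On scaled values 2 of the 7 tested did not overlap, both higher, beside 2.31% of genes higher and 2.39% lower. A sum of markers can be set by its most abundant genes and does not show that the whole set moved. Macrophage markers summed to 72.0 to 81.1 RPKM in Ad-LacZ and 137 to 319 in Ad-LacZ+JNKi, and duct markers to 309 to 469 and 571 to 1190 RPKM. Endothelial markers summed to 24.6 to 45.7 and 22.6 to 42.3 RPKM. The part of these cells in the matrix gene values was not tested.

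**Figure D3:**
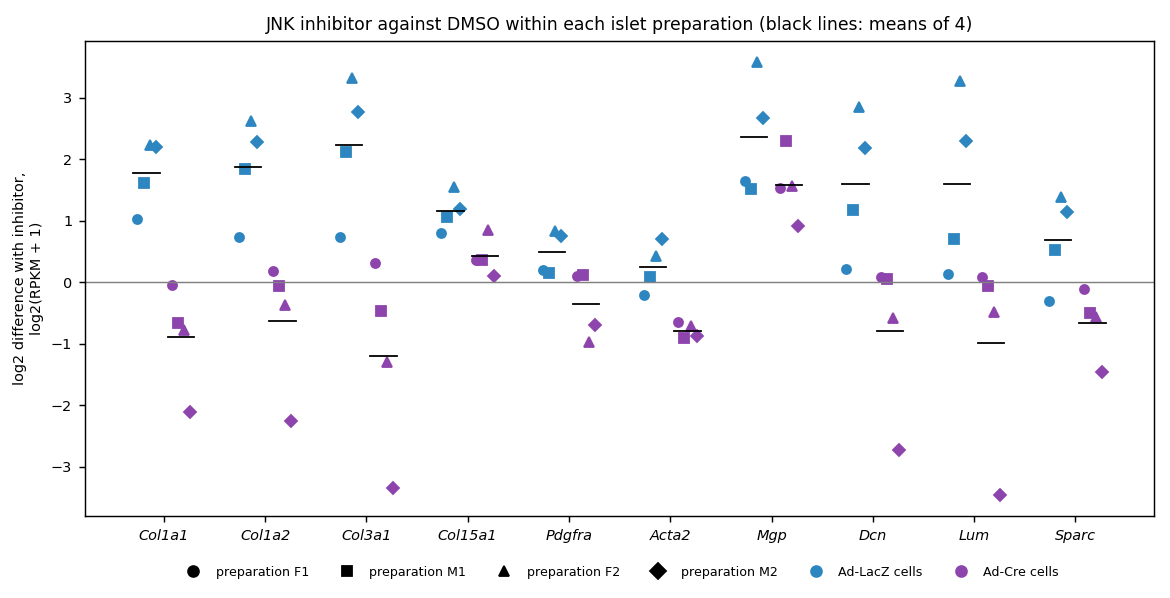
Difference in log2(RPKM + 1) between the library with JNKi and the library with DMSO of the same preparation, for each gene, in Ad-LacZ cells (blue) and Ad-Cre cells (purple), with black lines at the means of 4. Mgp and Col15a1 lie above 0 in all 4 preparations with both viruses, Col1a1 in Ad-LacZ cells, and M2 is the lowest Ad-Cre point for 8 of the 10 genes.

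In the libraries labelled Ad-Cre, Mgp was called higher and Acta2 lower with the inhibitor, in the paired fit only and not when F1, M1 or F2 was left out. Mgp was 3.53, 3.85, 6.99 and 1.98 times higher in Ad-Cre+JNKi than in Ad-Cre, and Col15a1 was 1.38, 2.17, 1.48 and 1.08 times higher. Acta2 was at 0.634, 0.609, 0.534 and 0.543 times its level in Ad-Cre, and Col1a1 at 0.969, 0.580, 0.614 and 0.230 times. On scaled values Mgp and Col15a1 were higher, and Acta2 and Sparc lower, in all 4 preparations, beside 16.9% of genes tested that were higher and 19.6% that were lower. These are 2 of 9 members tested in either direction, near the share of all genes and so no result about the members, and Col15a1 and Sparc were called in neither fit of all 4 preparations. Col1a1 was lower in all 4 on the values as deposited but in 3 of 4 after scaling, and without scaling the median log2 fold change of all genes was -0.14.

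For Ad-Cre+JNKi against Ad-Cre, limma without a block called 0 of 9 members and 0 of 11503 genes in all (0%). An unadjusted p under 0.05 was found for 1091 genes. Mgp was the 1 member among these, with a log2 fold change of 1.70 ± 0.42 (adjusted p = 0.226). It was also the 1 member taken by the study's rule, beside 8.80% of genes. Acta2 had a log2 fold change of -0.64 ± 0.70 (adjusted p = 0.855) and the 9 genes a median of -0.52, beside -0.02 over all genes. With the replicate block Mgp rose (SE 0.19, adjusted p = 0.0180) and Acta2 fell (SE 0.08, adjusted p = 0.0206), 2 of 9 genes where 6.00% of genes were called. This paired count was 0 without F1, M1 or F2, and 4 without M2 (Col15a1, Acta2, Mgp and Sparc). Over all genes it was 0 without F1, M1 or F2, and 3138 of 10951 without M2.

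Without the Ad-Cre library of M2 the median of the members between Ad-Cre+JNKi and Ad-Cre was 0.10, Acta2 was at -0.16 and Col1a1 at 0.10, in a fit that kept the Ad-Cre+JNKi library of M2. Without both M2 libraries of this comparison the paired fit gave -0.39 ± 0.13 (SE, adjusted p = 0.0631) for Col1a1, 0.0082 for Col1a2, -0.40 for Col3a1 and -0.65 ± 0.07 (adjusted p = 0.00298) for Acta2. Mgp overlapped between these groups through the Ad-Cre library of M2 at 9.99 RPKM and the Ad-Cre+JNKi library of F2 at 8.29 RPKM (p = 0.0571, exact two-sided permutation test). No member was without overlap, beside 3.92% of genes higher and 3.08% lower.

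Markers of some other cells were called in the paired fit of the same comparison, where 6.00% of all genes were called. Without the block 0 genes of any kind were called. The paired fit without F1, M1 or F2 also called 0 genes, so all these marker calls were lost there. The δ cell markers summed to 1134 to 2551 RPKM in Ad-Cre and 2466 to 6831 in Ad-Cre+JNKi, and 2 of 3 were called higher in the paired fit, with Sst, somatostatin, at 1.06 (adjusted p = 0.0382). Macrophage markers summed to 71.5 to 215 and 175 to 295 RPKM, with 1 of 8 called, Lyz2, lysozyme, at 1.44 (adjusted p = 0.0237), and a median of -0.07 over the 8. The α cell markers summed to 12005 to 21676 and 13458 to 27354 RPKM, with 1 of 6 called, Ttr, transthyretin, at 1.66 (adjusted p = 0.0105). Of the endothelial markers 1 of 8 was called (sums of 23.1 to 84.3 and 26.0 to 73.1 RPKM), of the duct markers 1 of 5 (343 to 575 and 554 to 585 RPKM) and of the β cell markers 0 of 10 (33563 to 84543 and 33368 to 64583 RPKM). The part of these cells in the matrix gene values was not tested.

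Under the inhibitor, the type I and III collagens and decorin were lower in the libraries labelled Ad-Cre than in Ad-LacZ. From Ad-LacZ+JNKi to Ad-Cre+JNKi, Col1a1 went from 130 ± 113 to 38.8 ± 33.3 RPKM (SD, n = 4) and was at 0.413, 0.359, 0.187 and 0.279 times. Col1a2 was at 0.657, 0.452, 0.234 and 0.250 times, Col3a1 at 0.461, 0.180, 0.121 and 0.156 times, and Dcn at 0.422, 0.113, 0.192 and 0.318 times. With Lum, 5 of the 10 genes were lower in all 4 preparations on scaled values, and 4 of the 9 tested, beside 24.2% of genes tested that were lower and 21.1% that were higher. Mgp was higher in 3 of 4 preparations after scaling, with 16.6 ± 10.2 RPKM in Ad-LacZ+JNKi and 12.9 ± 5.04 RPKM in Ad-Cre+JNKi.

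For this contrast limma without a block called 0 of the 9 genes, with 0 at an unadjusted p under 0.05, where 23.0% of 11598 genes were called. The study's rule took 0 of 9 and 17.8% of all genes. Col1a1 had a log2 fold change of -1.57 ± 0.79 (SE, adjusted p = 0.184), Col3a1 of -1.91 ± 1.05 (adjusted p = 0.221) and the 9 genes a median of -0.47, beside -0.03 over all genes. With the replicate block 4 of 9 fell, where 24.8% of genes were called: Col1a1 (SE 0.19, adjusted p = 0.00426), Col3a1 (SE 0.28, adjusted p = 0.00766), Col1a2 (SE 0.23, adjusted p = 0.0149) and Dcn (SE 0.32, adjusted p = 0.0434). The paired count was 5 without F1, 4 without M2 and 1 without M1 or F2, and Col1a1 was called in each. Over all genes it was 2716 of 11361 without F1 and 4130 of 10982 without M2. It was 318 of 11327 without M1 and 215 of 10991 without F2. No member was without overlap, beside 13.0% of genes higher and 14.7% lower.

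Markers of endocrine cells differed in this contrast too, where 23.0% of all genes were called without and 24.8% with the block. Of the β cell markers 9 of 10 were lower in Ad-Cre+JNKi than in Ad-LacZ+JNKi (median -0.84), with 5 called lower without the block and, with it, 7 called lower and 1 higher (Ins2, 0.56). The δ cell markers summed to 1266 to 3031 and 2466 to 6831 RPKM and the α cell markers to 11154 to 22060 and 13458 to 27354 RPKM, with 2 of 3 and 3 of 6 called higher in the paired fit. Of 5 duct markers 2 were called higher and 1 lower, Spp1, osteopontin, at -1.30 (adjusted p = 0.00824 without and 0.00421 with the block), while 0 of 8 macrophage and 0 of 8 endothelial markers were called in either fit. Their part in the matrix gene values was not tested.

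The interaction of virus and inhibitor asks whether the inhibitor's effect differed between the viruses. The comparisons above share their control libraries, so their values are set side by side only. With inhibitor, Col1a1 was 2.13 to 4.84 times its level in Ad-LacZ cells and 0.230 to 0.969 times its level in Ad-Cre cells, whereas Mgp was 3.67 to 18.6 and 1.98 to 6.99 times its level. By limma the interaction of Col1a1 was -2.53 ± 1.33 (SE) on the log2 scale and that of Col3a1 -3.31 ± 1.83, both with an adjusted p of 1.00. Of the 9 genes 0 were called and 0 had an unadjusted p under 0.05, where 0.0163% of 12274 genes were called. With the replicate block 8 of 9 had an unadjusted p under 0.05, yet 0 were called, as were 0 of all genes (0%), and the adjusted p was 0.110 for Col1a1, 0.154 for Col3a1 and 0.157 for Col1a2. Without the Ad-Cre library of M2 the unpaired interaction of Col1a1 was -1.67 and that of Acta2 -0.41. The tests called no difference between the viruses for any of the 9.

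Ratios between genes of the same library set the collagens against the contractile gene. The ratio of Col1a1 to Acta2 was 0.0761 to 0.135 in Ad-LacZ, 0.0720 to 0.294 in Ad-Cre, 0.226 to 0.387 in Ad-LacZ+JNKi and 0.0828 to 0.172 in Ad-Cre+JNKi. Ad-LacZ+JNKi lay above Ad-LacZ and above Ad-Cre+JNKi without overlap. The ratio of Mgp to Acta2 was 0.00449 to 0.0156 in Ad-LacZ, 0.00411 to 0.0186 in Ad-Cre, 0.0250 to 0.0768 in Ad-LacZ+JNKi and 0.0260 to 0.104 in Ad-Cre+JNKi, so every library with the inhibitor was above every library without it.

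The ratio of Sparc to Acta2 stayed between 0.131 and 0.262 in all 16 libraries. Col1a1 exceeded Col1a2 by 4.47 to 4.76 times in Ad-LacZ and by 3.46 to 4.20 times in Ad-Cre, with no overlap. Of 32 exact two-sided permutation tests, 8 ratios in 4 comparisons, 6 reached the smallest p of 0.0286, which is 0.152 after Benjamini-Hochberg adjustment, so none passed.

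**Figure D4:**
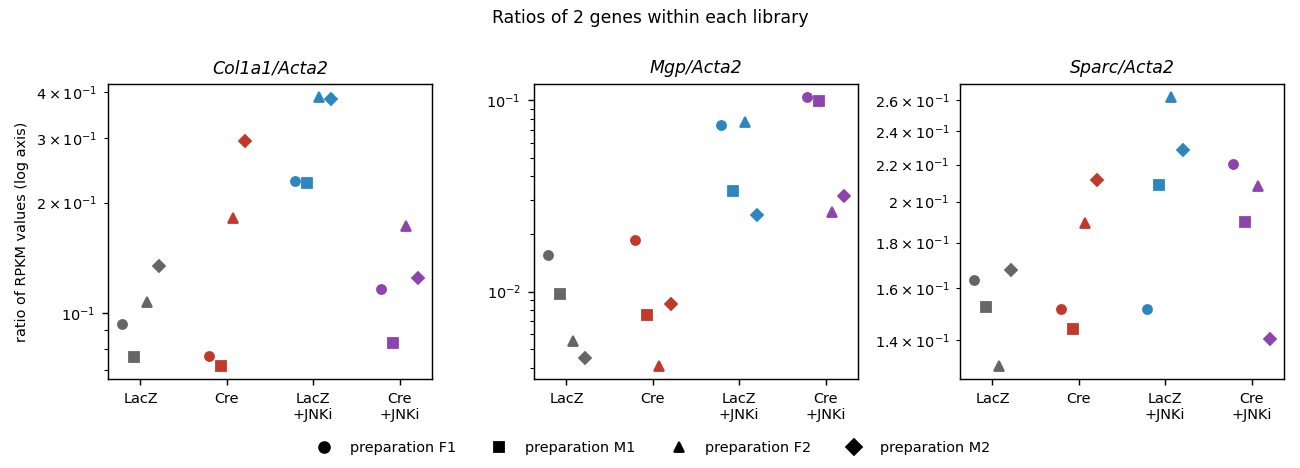
Ratio of RPKM values within each library (log axis), by group, with 1 mark per preparation. Col1a1 relative to Acta2 is 0.226 to 0.387 in Ad-LacZ+JNKi and at most 0.135 in Ad-LacZ, and Mgp relative to Acta2 is higher in all 8 libraries with JNKi than in the 8 without.

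Across the 16 libraries the members moved together, Mgp and Col15a1 apart. Pearson's r of log2(RPKM + 1) was 0.805 to 0.990 (median 0.941) over the 21 pairs of the other 7 genes above the filter, 0.180 to 0.844 (median 0.416) over 8 pairs with Mgp and 0.346 to 0.844 (median 0.567) over 8 pairs with Col15a1. Col1a1 and Col3a1 had an r of 0.990, and 0.974 after each preparation's mean was removed. For Col1a1 and Acta2 the r was 0.894, and 0.660 after that step. Without the Ad-Cre library of M2 the r was 0.719 to 0.987 (median 0.928) over the 21 pairs, 0.149 to 0.850 over the pairs with Mgp and 0.258 to 0.850 over those with Col15a1. The libraries share preparations, so these values are descriptions with no test.

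Of genes outside the list, Runx1, a transcription factor, had the pattern most like the mean of the members (r = 0.981 over 16 libraries). Next came Svep1 (0.979), Lrp1 (0.979), Il4ra (0.977), Adam12 (0.977), Mgst1 (0.975), Egr2 (0.974), Piezo2 (0.974), P4ha3 (0.969) and Sh3pxd2b (0.969). Over the 15 libraries without Ad-Cre of M2 the r of these 10 genes was 0.964 to 0.978, and 7 of them were still among the 10 most alike. Runx1 was at 0.371, 0.856, 0.554 and 1.42 RPKM in Ad-LacZ, 0.320, 1.47, 0.596 and 3.11 in Ad-Cre, 0.559, 1.98, 0.913 and 2.58 in Ad-LacZ+JNKi, and 0.423, 1.07, 0.533 and 1.68 in Ad-Cre+JNKi. As with Col1a1, Col1a2 and Col3a1, its highest library was Ad-Cre of M2. P4ha3 is a prolyl hydroxylase subunit for collagen, and Adam12 a membrane metalloprotease of mesenchymal cells.

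Related lists were read in the same fits. Between Ad-Cre and Ad-LacZ, 3 of 17 genes of collagen folding and crosslinking rose, among them P3h1, a prolyl 3-hydroxylase, by 1.27 on the log2 scale (adjusted p = 0.00192). In the other lists 0 genes passed without the block and 2 had an unadjusted p under 0.05. These lists were 11 other collagen chains (median 0.64), 15 matrix glycoproteins (median 0.46), 8 stellate and pericyte genes (median 0.49), 12 contractile genes (median 0.54), 14 TGF-β and PDGF genes (median 0.45) and 10 matrix turnover genes (median 0.61). With the replicate block 5 folding genes, 3 contractile genes, 2 genes each of the stellate, signalling and turnover lists and 1 collagen chain rose, and 0 glycoproteins. Among the contractile genes Actg2, γ-smooth muscle actin, was at 0.84 (adjusted p = 0.0432). Over all genes 19.3% were called without and 34.5% with the block, so the 3 of 17 folding genes and the 3 of 12 contractile genes are near or below the share of all genes. Without the Ad-Cre library of M2 the medians of the 7 lists were -0.01 to 0.17. In the paired fit the contractile calls numbered 2 without F1, 5 without M1, 1 without M2 and 0 without F2. In the same order, the calls over all genes were 2758 of 11390, 3072 of 11402, 3012 of 11102 and 1908 of 11154.

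With the inhibitor in Ad-LacZ cells, 0 genes of these 7 lists passed without the block and 10 had an unadjusted p under 0.05. With it, Lox, lysyl oxidase, rose by 1.38 (adjusted p = 0.0365), 1 of 17 folding genes, and Col6a3, a chain of type VI collagen, by 0.98 (adjusted p = 0.0438), 1 of 12 collagen chains. Actg2 rose by 0.79 (adjusted p = 0.0452), 1 of 12 contractile genes, 1 of 15 glycoproteins and 1 of 10 turnover genes rose, and 0 of 8 stellate and 0 of 14 signalling genes passed, where 0.206% of all genes were called without and 0.360% with the block. The paired fit called 0 genes of any kind without M1 or M2, so all these list calls were lost there. Without F2 the calls of collagen chains and contractile genes were lost as well, and without F1 they numbered 3 and 2. Over all genes the paired fit called 22 of 11229 without F2 and 204 of 11531 without F1.

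In the libraries labelled Ad-Cre the inhibitor gave 0 calls in these lists without the block, and 5 genes at an unadjusted p under 0.05. In the paired fit 6 of 12 contractile genes fell, with Actg2 at -1.06 (adjusted p = 0.0180), and 4 of 15 matrix glycoproteins, with Tnc, tenascin C, at -1.56 (adjusted p = 0.0180). Of 11 collagen chains 2 fell, with Col12a1 at -0.93 (adjusted p = 0.0105). Des, the intermediate filament desmin of stellate cells and pericytes, was at -1.19 (adjusted p = 0.0347), 1 of 2 that fell among 7 stellate and pericyte genes. Of 14 signalling genes 3 fell, while P4hb, protein disulfide isomerase, rose by 0.76 (adjusted p = 0.0180) and Ctsb, cathepsin B, by 0.52 (adjusted p = 0.0369). Over all genes 0% were called without and 6.00% with the block. Without F1, M1 or F2 the paired fit called 0 genes of any kind, so every one of these list calls was lost, while without M2 it called 3138 genes, 11 of 12 contractile genes among them. Without the Ad-Cre library of M2 alone the list medians were -0.06 to 0.25.

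Under the inhibitor, between Ad-LacZ and the libraries labelled Ad-Cre, 3 of 18 folding genes rose and 1 fell without the block, with P4hb at 1.81 (adjusted p = 0.00194). In the paired fit 5 of 13 collagen chains fell, with Col6a1 at -1.22 (adjusted p = 0.0444), and 6 of 15 glycoproteins, with Fn1, fibronectin, at -1.52 (adjusted p = 0.0155). Also 3 of 12 contractile genes fell, with Actg2 at -1.02 (adjusted p = 0.0312), and Ltbp2, a TGF-β binding protein, was at -1.05 (adjusted p = 0.00442), 1 of 14 signalling genes. Of 8 turnover genes 3 fell, with Ctsk, the collagen-degrading cathepsin K, at -1.30 (adjusted p = 0.0189). Thy1, a surface marker of fibroblasts, fell by 0.57 on the log2 scale (adjusted p = 0.0144) and S100a4 rose by 0.83 (adjusted p = 0.0191), 2 of 8 stellate and pericyte genes, and 3 folding genes rose and 3 fell. Over all genes 23.0% were called without and 24.8% with the block, so the 4 of 18 folding genes called without it and the 3 of 12 contractile genes called with it are near the share of all genes. Without M1 the paired fit called 1 collagen chain, 2 folding genes and 0 in the other lists. Without F2 it called 1 chain, 1 folding gene and 1 signalling gene. Over all genes it called 318 of 11327 without M1 and 215 of 10991 without F2.

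**Figure D5:**
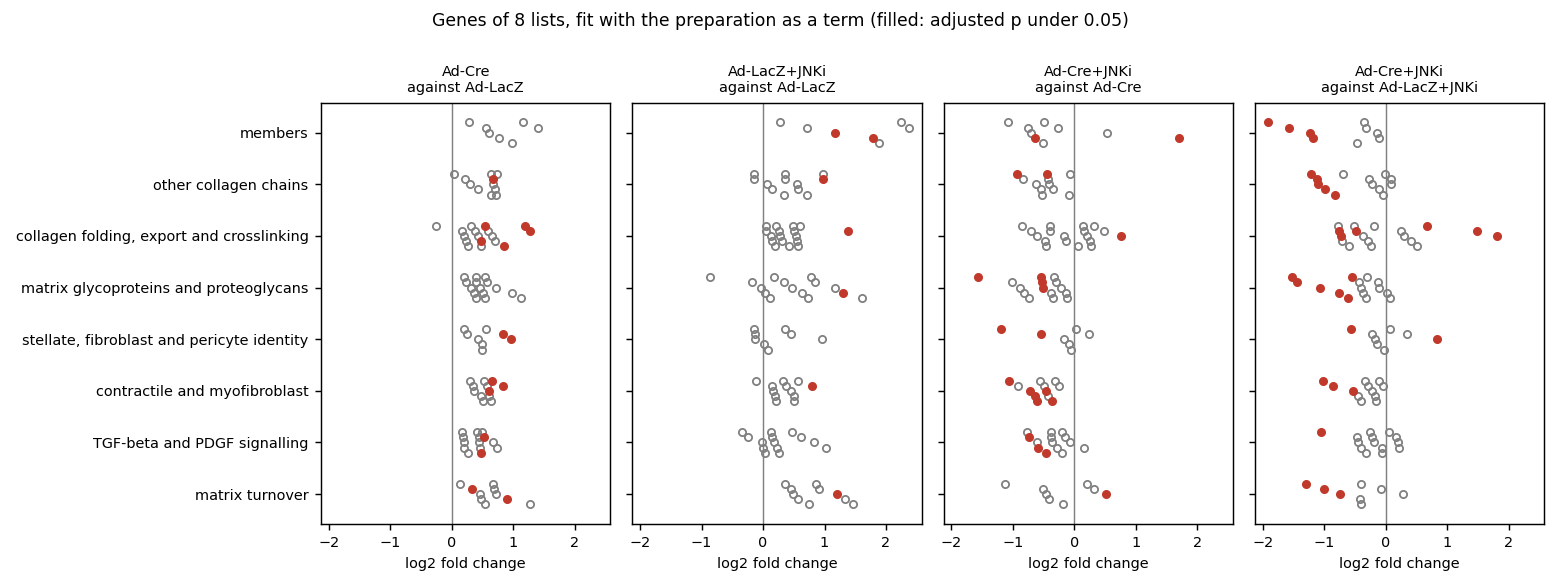
Log2 fold changes of the members and of the related lists in the 4 comparisons, with 1 point per gene tested, from the paired fit (filled red: adjusted p under 0.05). The members hold 0, 2, 2 and 4 filled points in the order of the panels, and their median is 0.77, 1.79, -0.52 and -0.47.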

How the data were processed

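Dispersed islet cells were profiled by paired-end 150 base poly(A) RNA sequencing in 16 libraries. The authors aligned reads to the mouse genome, build GRCm38 per the submitters' processing notes, and deposited RPKM values, which are scaled by gene length and library size. The study cites STAR for the alignment, and its version, the counter and the annotation are not given in the sources used here. The table has 3 more columns, matched by no label, which stayed out. Groups and preparations came from the labels.

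Depth was read from steps between low values times exon length (GENCODE M21), and 92.7% to 94.1% of low values were within 0.02 of a whole read. Reads behind a value carry counting error, so genes with few reads were left out: a gene was tested if above 1 RPKM in at least 4 libraries of the comparison. Libraries were put on one scale by factors of the RPKM from the trimmed mean of M-values (TMM), with 30% of ratios and 5% of levels trimmed. The log2 of the scaled value plus a pseudocount of 1 entered limma 3.58.1 (eBayes with trend) in R 4.3.3 over all genes, with Benjamini-Hochberg adjustment and a threshold of 0.05. Fold changes on this scale understate changes of low genes. Comparisons used the 8 libraries of 2 groups, while the interaction and the preparation used all 16. The study's thresholds, P under 0.05 and a fold change over 1.5, were taken as unadjusted, and 1.2 was used for the inhibitor. Single genes and ratios had exact two-sided permutation tests on unscaled values. Fold changes within a preparation are of RPKM as deposited. Tables were made with Python 3.11.15. Only the fit without the block, for Ad-LacZ+JNKi against Ad-LacZ, was tested on simulated data, with libraries drawn as independent. The fits with the block, of the interaction and of the preparation were not tested in this way.

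Libraries of a preparation are parallel cultures of the same animals and so are paired. Residuals of libraries of the same preparation correlated at 0.126 to 0.824 in the 4 comparisons, and other pairs at a mean of -0.228 to -0.127. Whether the 2 animal numbers per preparation were pooled is not given. P-values of the fits without the block and of the permutation tests measure the spread between these preparations within a group. With the block they measure the spread of differences within preparations. The test of the preparation itself sets preparations against the spread left within them.

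The text names all 10 members, Hspa5, the gene with the highest or lowest fold change of a related list, and the 10 other genes most correlated with the members' mean. The members and lists were chosen with earlier results of these data known. Alternatives were a pseudocount of 0.1, no filter or one at 0.1 RPKM, RPKM as deposited, quantile normalization, eBayes without trend, the preparation as a replicate block, a single fit to all 16 libraries, and each preparation left out. The block combined with these choices, and fits without the Ad-Cre library of M2 or the Ad-Cre+JNKi library of F2, were added after seeing the data, as were the variance shares, correlations and list counts without M2 libraries.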

Additional observations from a re-analysis of the deposited data

Results flagged for a closer look

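Within the 4 libraries labelled Ad-Cre, preparation M2 stood far from the others for 3 genes. The gap to the next library was 0.874 of the group's range for Mgp (9.99 RPKM in M2), 0.862 for Dcn (19.6 RPKM) and 0.95 for Lum (13.9 RPKM), above Dixon's 95% critical value of 0.829. The highest and lowest library of 40 groups of 4 libraries were looked at. The critical value is for normal values, while these RPKM were skewed, and the groups share libraries, so no chance rate is given. All 3 flags came from the same library and are not separate events.

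Some effects went opposite ways in all 4 preparations of each arm, on log2(RPKM + 1) of the deposited values. How many of all genes meet this rule was not counted. In single comparisons, on scaled values, 10.8% to 27.0% of genes tested moved a given way in all 4 preparations. Col1a1 was higher with the inhibitor in every preparation of Ad-LacZ and lower in every one of Ad-Cre, a difference of -2.66, although after scaling it was lower in 3 of 4. Col1a2 was higher with Ad-Cre in every preparation without the inhibitor and lower with it, a difference of -2.5. Acta2 did likewise, with a difference of -1.04, but after scaling it was lower in 3 of 4 preparations with the inhibitor. Without the inhibitor the rise with Ad-Cre was small in F1 and M1, at 1.06 and 1.04 times for Col1a2 and 1.11 and 1.02 times for Acta2. The interaction in limma with the replicate block had adjusted p of 0.110 for Col1a1, 0.157 for Col1a2 and 0.244 for Acta2, so these differences missed the threshold.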

How the results depend on the processing

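The count of members called for the inhibitor in Ad-LacZ (2) was 0 without a low filter, 1 with a filter at 0.1 RPKM, 0 on RPKM as deposited, 1 with all 16 libraries in one fit and 0 to 0 when 1 preparation was left out. A filter changes how many genes are tested; otherwise the cause was not tested. With the preparation as a replicate block, the counts rose from 0 to 2 for the inhibitor in Ad-Cre and from 0 to 4 for Ad-Cre+JNKi against Ad-LacZ+JNKi. In these paired fits, leaving out 1 preparation gave 0 to 4 for Ad-Cre against Ad-LacZ, 0 to 6 for the inhibitor in Ad-LacZ, 0 to 4 for the inhibitor in Ad-Cre and 1 to 5 for Ad-Cre+JNKi against Ad-LacZ+JNKi, and RPKM as deposited gave 0 for the inhibitor in Ad-LacZ. The counts of all genes called in these paired fits moved as well, as given with each comparison. Signs turned for some members. Over the fits leaving out 1 preparation or library, Col15a1 in Ad-Cre against Ad-LacZ ran from -0.028 to 0.40, the low end without the Ad-Cre library of M2. For the inhibitor in Ad-Cre the members' median ran from -0.78 to 0.10, Col1a1 from -1.06 to 0.10, Col1a2 from -0.86 to 0.31, Col3a1 from -1.57 to 0.10 and Sparc from -0.71 to 0.059, the high ends all without the Ad-Cre library of M2, and Col1a2 was at 0.0082 without preparation M2, with and without the block. For Ad-Cre+JNKi against Ad-LacZ+JNKi, Mgp ran from -0.36 to 0.38, the latter without preparation F2, with and without the block, and was at 0.086 without the Ad-Cre+JNKi library of F2. The preparation effect was called for 7 or 8 of the members in every setting. Depth limits Lum, Dcn and Pdgfra, which had as few as 0, 3 and 4 reads.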
